A study of Physcomitrium patens with 4 samples.

Results

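AP2/ERF transcription factors of the moss Physcomitrella patens (Physcomitrium patens) were followed through the first 72 h after protoplast isolation. The members are the genes whose Pfam annotation in the deposited tables contains PF00847, the AP2 domain, and they number 113 of the 18800 genes listed. Digital gene expression tag profiling was applied to fresh protoplasts (0 h) and to their cultures after 24, 48 and 72 h. This method counts short tags from a fixed site near the end of each transcript, so that the tags of a gene do not grow with its length. By the study's methods, the protoplasts came from wild-type protonemata, the filaments of the moss, whose walls had been digested with the enzyme mixture Driselase. All 4 groups share this source. RNA of the 0 h group was taken from fresh protoplasts that had been digested and washed in mannitol but not cultured. The later groups had been in liquid medium with no hormone and with mannitol at the same concentration. Medium and time therefore cannot be told apart between 0 h and the rest. The cells stayed in darkness for the first 24 h and were moved to a day and night cycle after it, so the effects of light and of time in culture cannot be told apart from 24 h onward. All RNA of a time point went into 1 library. There are no replicates, and every comparison is between libraries.

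The AP2 domain binds short DNA elements such as the GCC box and the dehydration-responsive element. In Arabidopsis the family is divided into the DREB factors, best known for responses to cold, drought and salt, the ERF factors, several of which act downstream of ethylene, the RAV factors with an added B3 domain, and the AP2 type, with members such as AINTEGUMENTA that promote organ growth. In P. patens, AP2-type factors are needed for the gametophore apical cell and the AP2/ERF factors called STEMIN turn leaf cells into stem cells. None of the deposited annotations marks a member as one of these moss genes, so the names below are those of the best Arabidopsis match and do not state orthology. An Arabidopsis match was listed for 112 members, to 46 loci, and a gene symbol for 57. By the locus matched, 20 members were placed in DREB A-4, 21 in A-5, 5 in A-6, 5 in A-2 and 3 in A-1, and 15, 2, 11, 6, 7 and 3 members in ERF B-1 to B-6. The RAV factors had 2 members, the AP2 type 3 and the soloist, a family branch of its own in Arabidopsis, 2. Another 8 members were left unplaced. Of these, 7 match RAP2.11 of Arabidopsis, a locus missing from the list of subfamilies used. They are described together and counted in no subfamily below.

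The libraries held 1750184 to 2445814 gene tags. A count of 0 was given a nominal limit of 3 tags, which stood at 1.23 to 1.71 per 1000000. The authors had removed single-copy tags, and the smallest count above 0 is 2. A count of 0 can thus hide tags seen once, and the true level may lie above this limit. Markers of green moss cells, which were the antenna proteins of light harvesting and the RuBisCO small subunit, had tags in every library. Their levels were far from even, with 0.392% of the tags on 38 antenna genes at 24 h and 5.86% at 48 h. The 72 h library stood apart in its makeup, since its 10 most tagged genes took 24.2% of its tags against 4.39% to 7.90% in the others, and by the study's account it had lost far more tags to adaptor sequence. Ratios therefore rest on TMM-scaled library sizes (TMM, the trimmed mean of M-values, assumes that most genes keep their level), and their 95% intervals cover counting error alone. To be called, a gene had to pass the exact test of edgeR with no spread between cultures, with a ratio of 4-fold or more and 100 or more tags in the higher of the libraries. The words rose and fell are used for called members only. Shares over all genes were counted at these settings alone. Counts of members at other settings have none beside them and are not read against all genes.

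As a family, the AP2/ERF members had their most tags in fresh protoplasts and their fewest at 48 h. Together they held 9765, 5439, 2682 and 3714 tags at 0, 24, 48 and 72 h. As shares these came to 0.434% (95% Wilson interval 0.426 to 0.443) in fresh protoplasts, 0.311% (0.303 to 0.319) after 24 h, 0.137% (0.131 to 0.142) after 48 h and 0.152% (0.147 to 0.157) after 72 h. In tags per 1000000 of the TMM-scaled library the sums were 3676, 2329, 1495 and 2188, so that on this scale too the 48 h library was the lowest. The sum over 323 genes of 7 other factor families (MYB, bHLH, WRKY, bZIP, homeobox, heat shock and NAC) was likewise highest at 0 h and lowest at 48 h, with 11927, 7359, 6013 and 8141 scaled tags per 1000000 in order of time. Less RNA of these genes per cell and fewer cells that carry it cannot be told apart.

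**Figure D1:**
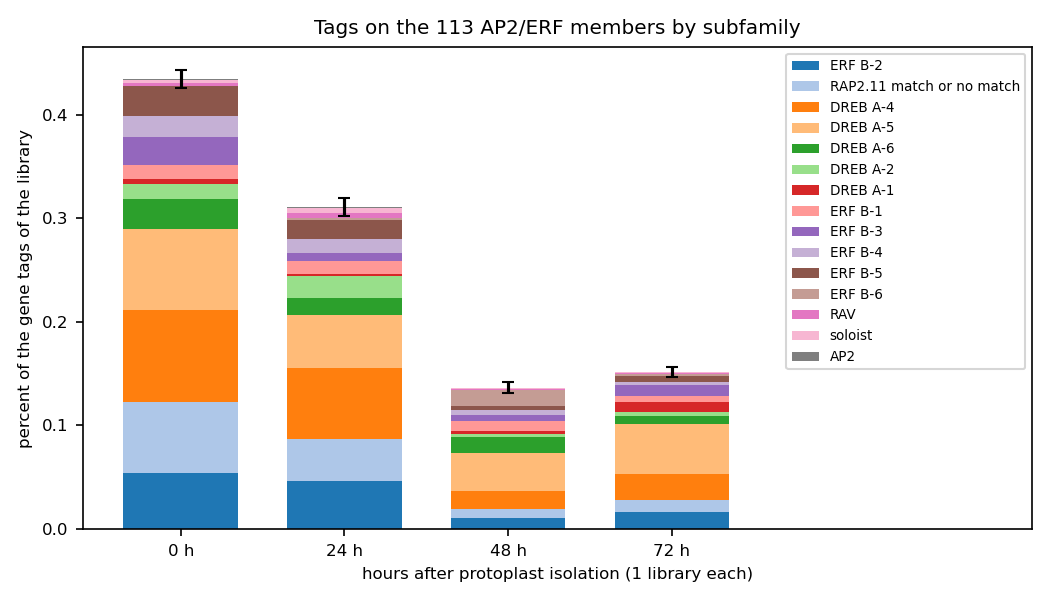
Share of the gene tags of each library (y axis, percent) that lay on the 113 AP2/ERF members at 0, 24, 48 and 72 h (x axis), stacked by subfamily, with the 95% Wilson interval of the total as a bar. The total is 0.434% at 0 h and 0.137% at 48 h, and the band of ERF B-6 is thickest at 48 h, where it holds 303 tags. That band leaves out the RAP2.11 matches, which are stacked apart with the member that has no match.

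Most of the family was measured at low counts. Tags in all 4 libraries were seen for 61 members, 35 reached 100 tags in at least 1 library, 22 stayed under 10 tags in every library and 15 were seen in 1 library only. Members with tags numbered 99, 91, 84 and 85 at 0, 24, 48 and 72 h, and the median member had 27, 16, 6 and 9 tags. Of all 18800 genes, 16710, 16278, 13920 and 14340 had tags, and the median gene had 29, 26, 13 and 13. Detection thus fell over all genes too, and 6700 of them reached 100 tags in a library. Of the 35 members with at least 100 tags in a library, 17 (48.6%) had their highest scaled value in fresh protoplasts. After 24, 48 and 72 h these were 9 (25.7%), 3 (8.57%) and 6 (17.1%). Over all 6700 genes with at least 100 tags in a library, 28.3%, 17.7%, 28.1% and 25.9% were highest at 0, 24, 48 and 72 h. These are descriptions of 4 libraries.

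Between fresh protoplasts and 24 h, 4 members rose and 4 fell. The 4 that rose were Pp1s120_13V6 (36.4-fold), Pp1s8_127V6 (5.03-fold), the CRF2 match Pp1s293_60V6 (4.73-fold) and the TINY2 match Pp1s55_253V6 (4.30-fold). Those that fell were Pp1s162_92V6 (at least 62.4-fold), the ERF-1 match Pp1s60_148V6 (16.0-fold), Pp1s155_21V6 (7.80-fold) and Pp1s15_186V6 (5.11-fold). In this comparison 90 of the 113 members were tested, so that 4.44% were called higher and 4.44% lower. Over all 15077 genes tested, 2.43% were called higher and 4.88% lower. The minimum of 100 tags was reached by 30 members, 13.3% of which were called in each direction, beside 6.64% higher and 13.3% lower over all genes that reached it. The members' median log2 change was -0.90 (-0.92 with counts of 0 at their bound), beside -0.08 over all genes tested, and 61 of the 90 were below 0. With an assumed coefficient of variation of 0.4 between cultures, 1 of the 4 that rose (Pp1s120_13V6) and 2 of the 4 that fell (Pp1s162_92V6 and Pp1s60_148V6) were still called. With a minimum of 20 tags in place of 100, 8 members were called higher and 19 lower. The shares of all genes at these other settings were not counted.

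Between 24 and 48 h, when the cells had been moved to light, 11 members fell and 2 rose. The 11 that fell were 5 DREB A-4 members, 2 A-5 members, the A-2 member Pp1s120_13V6, the CRF2 match Pp1s21_247V6 and the RAP2.11 matches Pp1s17_332V6 and Pp1s225_102V6. In 10 of them the fall was 4.31-fold to 41.9-fold, and in Pp1s133_11V6, with 0 tags at 48 h, at least 28.9-fold. Those that rose were the HRD match Pp1s249_80V6 (at least 51.2-fold) and Pp1s21_214V6 (32.4-fold). Of 79 members tested, 2.53% were called higher and 13.9% lower, beside 7.48% and 6.83% of all genes tested. Of the 22 members that reached 100 tags, 50% were called lower and 9.09% higher, beside 19.1% lower and 20.9% higher over all genes that reached it and 28.8% lower and 10.2% higher over those of the 7 other factor families. The median log2 change of the members was -1.0 (-1.03 at the bound) and that of all genes tested -0.30, a difference of -0.70 that came to -0.26 when genes with fewer than 10 tags were kept. With the assumed coefficient of variation of 0.4 between cultures, 6 of the 11 that fell and both that rose were still called. With a minimum of 20 tags, 23 members were called lower and 7 higher, and the share of all genes at that minimum was not counted.

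Between 48 and 72 h, 4 members rose and 2 fell, and the median member differed little between the libraries. Those that rose were Pp1s60_269V6 (68.5-fold), the RAP2.11 match Pp1s195_38V6 (33.3-fold), Pp1s155_21V6 (12.2-fold) and the CBF2 match Pp1s119_43V6 (4.32-fold). The HRD match Pp1s249_80V6 (37.2-fold) and Pp1s21_214V6 (9.06-fold) fell. Of 69 members tested, 5.8% were called higher and 2.9% lower, beside 7.65% and 7.06% of all genes tested. Of the 14 that reached 100 tags, 28.6% were called higher and 14.3% lower, beside 21.3% and 19.7% of all genes that reached it. The members' median log2 change was -0.05, beside 0.01 over all genes tested, and its sign turned (0.0245) when genes above 1% of any library were left out. A minimum of 20 tags gave 12 members called higher and 5 lower, and the share of all genes at that minimum was not counted. The call of the CBF2 match was lost both with the assumed spread and with total tags in place of TMM.

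Across the whole series, from 0 to 72 h, 13 members fell and 3 rose. Those that rose were the RAP2.11 match Pp1s195_38V6 (7.04-fold), Pp1s79_169V6 (6.17-fold) and Pp1s60_269V6 (5.02-fold). Those that fell did so by 4.12-fold to 212-fold, and 4 of the 13 match RAP2.11. Only 5 RAP2.11 matches reached 100 tags in this comparison, and 80% of them fell, beside 20.6% of all genes that reached it. Of 89 members tested, 3.37% were called higher and 14.6% lower, beside 6.08% and 7.93% of all genes tested. Of the 28 that reached 100 tags, 10.7% were called higher and 46.4% lower, beside 15.8% and 20.6% of all genes that reached it. The median log2 change was -1.29 (-1.35 at the bound) for the members and -0.34 for all genes tested. Scaled by total tags, 1 member rose and 16 fell, but the median of all genes tested itself shifted by -0.75 with that scaling. With the assumed spread between cultures 0 rose and 6 fell, and a minimum of 20 tags gave 9 higher and 30 lower. The shares of all genes at these settings were not counted, so these counts are not read as results about the members.

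**Figure D2:**
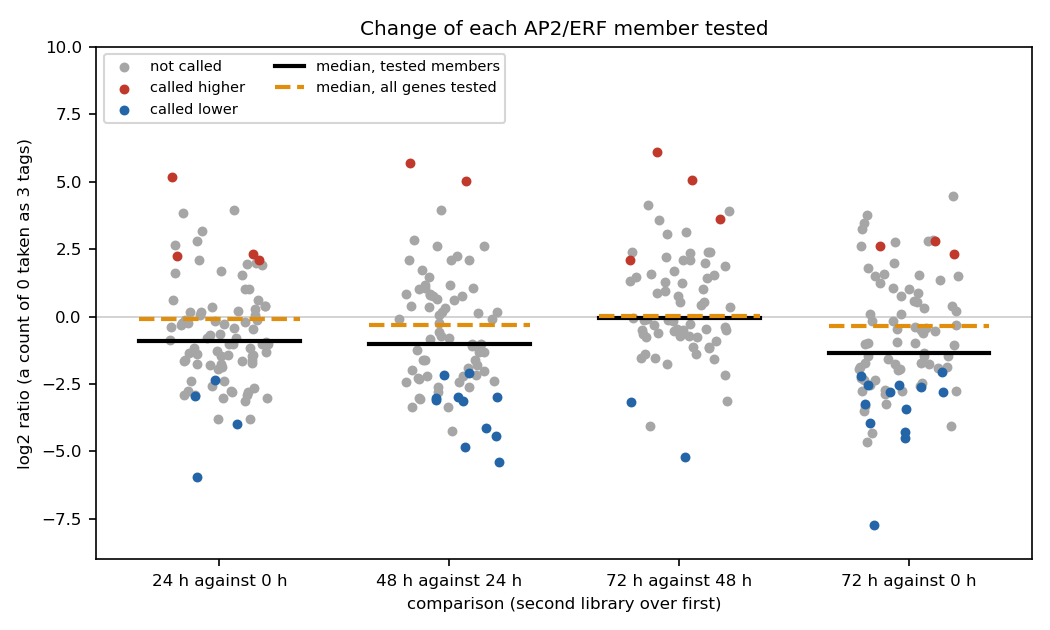
Log2 ratio of each AP2/ERF member tested (points; counts of 0 taken as 3 tags) in the 4 comparisons (x axis), with called members in red (higher) and blue (lower), the members' median as a black line and the median of all genes tested as a dashed line. The black line lies below the dashed line at 24 h against 0 h (-0.92), 48 h against 24 h (-1.03) and 72 h against 0 h (-1.35), and on it at 72 h against 48 h.

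DREB A-1 holds the CBF factors, which in Arabidopsis switch on cold acclimation, and the related DDF factors. The CBF2 match Pp1s119_43V6 had 60, 10, 33 and 135 tags at 0, 24, 48 and 72 h. It was thus lowest in the dark culture at 24 h and highest at 72 h, where it was 4.32-fold higher (2.94 to 6.54) than at 48 h, and this rise was the only call in the group. The ddf2 match Pp1s1_388V6, with 25, 8, 26 and 97 tags in order of time, was likewise lowest at 24 h and highest at 72 h, and it stayed just under the 100 tags required. The DDF1 match Pp1s25_372V6 was seen at 0 h (32 tags) and 24 h (18 tags) and in neither later library. The nominal limit of 3 tags stood at 1.53 per 1000000 at 48 h and 1.23 at 72 h.

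DREB A-2 holds the DREB2 factors, which in Arabidopsis act in dehydration and heat. Pp1s120_13V6, matched to the DREB2D locus AT1G75490, had 11, 352, 31 and 50 tags at 0, 24, 48 and 72 h. It stood out at 24 h, with a rise of 36.4-fold (20.1 to 73.6) and a fall of 8.72-fold (6.03 to 13.0) by 48 h. The other 4 members of the group share the match AT3G57600, and 3 of them had tags at 0 h and none at 24 h. Pp1s162_92V6 had 213, 0, 0 and 6 tags at 0, 24, 48 and 72 h, a fall of at least 62.4-fold in the first 24 h. Pp1s292_5V6 with 47 tags and Pp1s28_144V6 with 24 were seen at 0 h only. The last of the set, Pp1s7_352V6, had 18, 9, 23 and 21 tags, so it alone of the 4 was seen in every library.

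DREB A-4 holds TINY and its relatives, which in Arabidopsis bind the dehydration-responsive element and restrain growth when overproduced. Its 20 members carried 1988, 1206, 335 and 608 tags at 0, 24, 48 and 72 h, and 5 of the 7 that reached 100 tags in the 24 or 48 h library fell between these libraries. This is 71.4% of few genes, beside 50% over the whole family and 19.1% over all genes that reached 100 tags. Pp1s15_186V6, matched to AT4G32800, had 663, 114, 5 and 2 tags at 0, 24, 48 and 72 h. It fell in both of the first steps, 5.11-fold (4.19 to 6.29) and then 17.5-fold (7.29 to 55.0), and its 2 tags at 72 h made it 212-fold lower (58.4 to 1753) than at 0 h. Others with the same match were highest at 24 h. Pp1s8_127V6 had 33, 146, 26 and 19 tags, a rise of 5.03-fold (3.43 to 7.58) and then a fall of 4.31-fold (2.83 to 6.82). Pp1s133_11V6 had 64, 113, 0 and 6 tags, with a fall of at least 28.9-fold from 24 to 48 h. Both were thus highest at 24 h, while Pp1s480_16V6, with 270, 75, 0 and 25 tags, was highest at 0 h like Pp1s15_186V6. All 4 of these genes were at 0 to 26 tags at 48 h.

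The TINY2 matches of DREB A-4 also differed in their highest library. Pp1s55_253V6 had 60, 227, 8 and 28 tags at 0, 24, 48 and 72 h. It rose 4.30-fold (3.22 to 5.82) and then fell 21.8-fold (10.9 to 51.1), so its 24 h library stood above the rest. Pp1s480_12V6 had 152, 53, 9 and 5 tags and was 19.4-fold lower (8.14 to 60.7) at 72 h than at 0 h. Pp1s276_57V6, matched to AT1G71450, had 144, 145, 14 and 27 tags at 0, 24, 48 and 72 h, even over the first step and 7.96-fold lower (4.59 to 14.9) at 48 h than at 24 h.

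Among the called A-4 members, a pair was highest at 48 or 72 h. Pp1s249_80V6 matches HRD (HARDY), a factor that makes Arabidopsis tolerant to drought when it is overproduced, and its annotation adds a zinc finger domain, PF00096. It had 26, 0, 118 and 3 tags at 0, 24, 48 and 72 h. The gene thus stood out at 48 h, at least 51.2-fold above 24 h and 37.2-fold (12.4 to 183) above 72 h. Pp1s60_269V6, matched to AT2G44940, had 101, 32, 5 and 324 tags at 0, 24, 48 and 72 h. Its lowest and highest libraries followed each other, with a rise of 68.5-fold (29.1 to 212) from 48 to 72 h.

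DREB A-5 carried 1765, 886, 718 and 1181 tags at 0, 24, 48 and 72 h over 21 members, and it was the subfamily with the most tags at 48 and 72 h. On the TMM scale its sums were 664, 379, 400 and 696 in order of time. By that scale the subfamily was highest at 72 h, with 0 h close below, and lowest at 24 h, with 48 h close above. Pp1s155_21V6, matched to AT5G21960, had 275, 31, 36 and 416 tags at 0, 24, 48 and 72 h. It was low in both middle libraries and high at both ends, with a fall of 7.80-fold (5.37 to 11.7) and a later rise of 12.2-fold (8.68 to 17.7). The match AT1G19210 is shared by 9 members, 3 of which reached 100 tags. Pp1s243_70V6 with 253, 110, 10 and 28 tags and Pp1s240_84V6 with 169, 180, 31 and 10 tags fell between 24 and 48 h, by 8.45-fold (4.43 to 18.1) and 4.46-fold (3.03 to 6.76). Pp1s79_169V6, singled out after its values were seen, had 53, 53, 69 and 209 tags and was 6.17-fold higher (4.55 to 8.51) at 72 h than at 0 h.

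Other A-5 members with many tags were called in no comparison. Pp1s296_7V6, matched to AT4G31060, had 263, 213, 152 and 115 tags at 0, 24, 48 and 72 h. Its 3 consecutive ratios were 1.09-fold, 1.08-fold and 1.25-fold lower, the first of which changed sign with total tags. The ORA47 match Pp1s58_260V6, whose Arabidopsis counterpart drives jasmonate synthesis, had 274, 90, 89 and 123 tags, highest at 0 h. Its ratio of 48 h to 24 h, 1.29-fold higher, changed sign with total tags. Pp1s187_47V6 of DREB A-6, matched to AT4G39780, came next to the most tagged member in summed scaled tags and had 489, 128, 203 and 158 tags at 0, 24, 48 and 72 h. It too was called in no comparison, with its largest ratio, 3.36-fold lower (2.76 to 4.11), in the first 24 h.

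The member with the most tags of the whole family lies in ERF B-2, a group whose Arabidopsis members act in the response to low oxygen and switch on fermentation genes. This HRE2 match, Pp1s373_18V6, had 1182, 763, 150 and 379 tags at 0, 24, 48 and 72 h. It was highest in fresh protoplasts and lowest at 48 h, where it was 3.91-fold lower (3.28 to 4.69) than at 24 h. That ratio lies just under the 4-fold required and was called when total tags were used or genes above 1% of any library were left out. The other HRE2 match, Pp1s21_239V6, had 42, 57, 54 and 35 tags, without such a dip at 48 h.

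ERF B-3 holds activators that bind the GCC box, such as ERF-1 of Arabidopsis. Its members held 605, 137, 127 and 257 tags in order of time, and 7 of its 11 members match ERF-1. Pp1s60_148V6 had 218, 12, 19 and 24 tags at 0, 24, 48 and 72 h. It was high in fresh protoplasts alone, with a fall of 16.0-fold (8.96 to 31.4) in the first 24 h. Pp1s38_257V6 had 105, 35, 61 and 135 tags, highest at 72 h, and none of its ratios was called. ERF B-4 was led by Pp1s7_472V6, matched to AT2G33710, with 207, 82, 25 and 14 tags. Each library held fewer than the last, and at 72 h it was 9.45-fold lower (5.5 to 17.6) than at 0 h.

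ERF B-5 holds the cytokinin response factors, which in Arabidopsis act downstream of the cytokinin receptors, and 6 of its 7 members match CRF2. Pp1s21_247V6 had 514, 123, 12 and 53 tags at 0, 24, 48 and 72 h. It was lowest at 48 h, after a fall of 7.87-fold (4.35 to 15.7) from 24 h. Pp1s293_60V6 had 25, 104, 32 and 20 tags at 0, 24, 48 and 72 h. This gene rose in the first 24 h instead, 4.73-fold (3.03 to 7.64), and 24 h was its highest library.

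**Figure D3:**
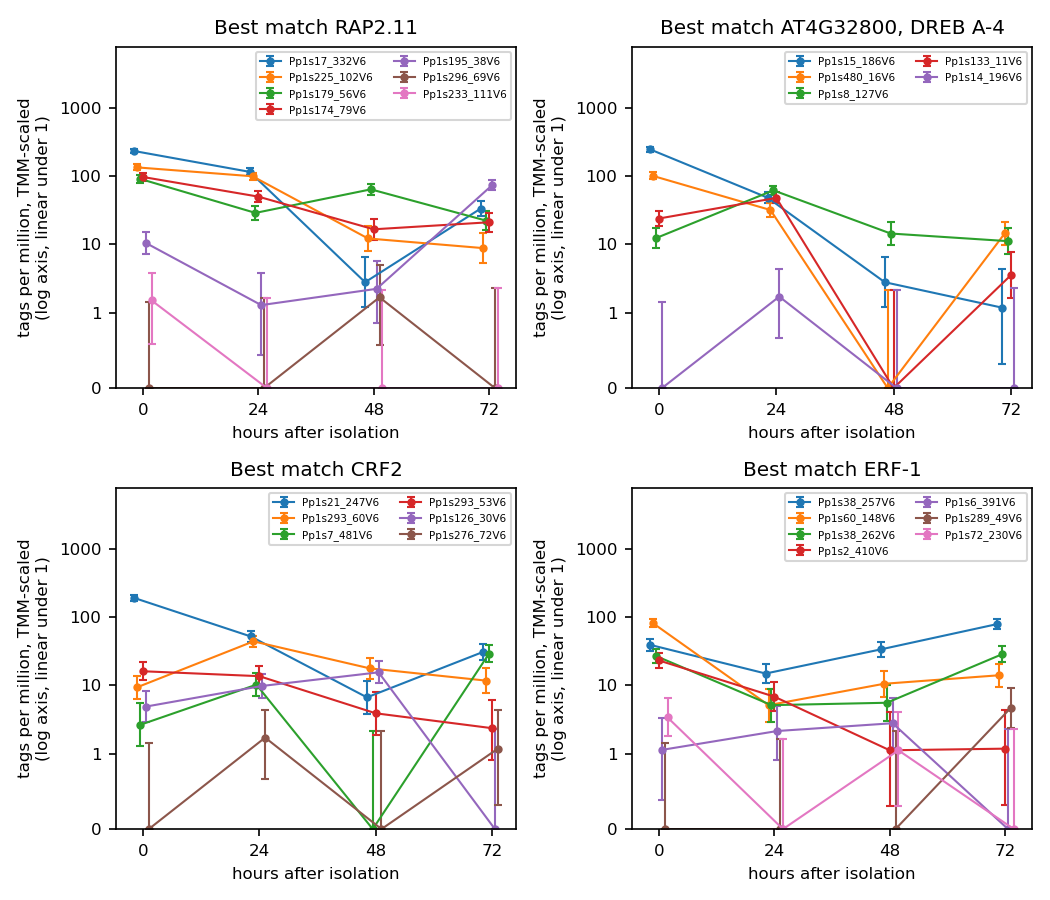
Tags per 1000000 of the TMM-scaled library (y axis, log scale, linear under 1) against hours after isolation (x axis) for the members that share the Arabidopsis match RAP2.11, AT4G32800, CRF2 or ERF-1, with 95% Wilson intervals for counting error and points shifted sideways for legibility. Members of 1 match differ in their highest library, as for the CRF2 matches Pp1s21_247V6 (514 tags at 0 h) and Pp1s293_60V6 (104 tags at 24 h).

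The members matched to RAP2.11, a factor that in Arabidopsis responds to low potassium, numbered 7, of which 5 reached 100 tags. Pp1s17_332V6 had 628, 273, 5 and 57 tags at 0, 24, 48 and 72 h. Only the HRE2 match Pp1s373_18V6 and Pp1s187_47V6 had more scaled tags in sum, and it fell 41.9-fold (17.8 to 130) between 24 and 48 h. Pp1s225_102V6 had 361, 235, 22 and 15 tags, a fall of 8.21-fold (5.29 to 13.3) in the same step. Pp1s174_79V6 had 261, 118, 30 and 36 tags and Pp1s179_56V6 had 245, 68, 116 and 38. These 4 genes were all highest at 0 h, and at 72 h they were 7.04-fold (5.36 to 9.40), 15.4-fold (9.20 to 27.8), 4.63-fold (3.26 to 6.76) and 4.12-fold (2.92 to 5.96) lower. The last of these ratios lost its call with DESeq2 size factors. Pp1s195_38V6 had 28, 3, 4 and 126 tags at 0, 24, 48 and 72 h. It was the only one of the 5 that was highest at 72 h, 33.3-fold (12.7 to 124) above 48 h and 7.04-fold (4.65 to 11.0) above 0 h.

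The 3 members placed in ERF B-6 had their most tags at 48 h, 303 of them against 6 at 0 h, 28 at 24 h and 37 at 72 h. This sum leaves out the 7 unplaced RAP2.11 matches, which held 1527, 697, 180 and 272 tags in order of time. With them included, the group would be highest at 0 h and not at 48 h. Pp1s21_214V6, matched to AT5G25190, the ethylene and salt inducible gene ESE3 of Arabidopsis, had 0, 10, 249 and 26 tags. It was high at 48 h alone, after a rise of 32.4-fold (17.3 to 68.4) and before a fall of 9.06-fold (6.04 to 14.1). The SHN1 match Pp1s86_33V6, whose Arabidopsis counterpart controls the waxes and cutin of the cuticle, had 6, 16, 52 and 11 tags, highest at 48 h as well but below the 100 tags required.

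**Figure D4:**
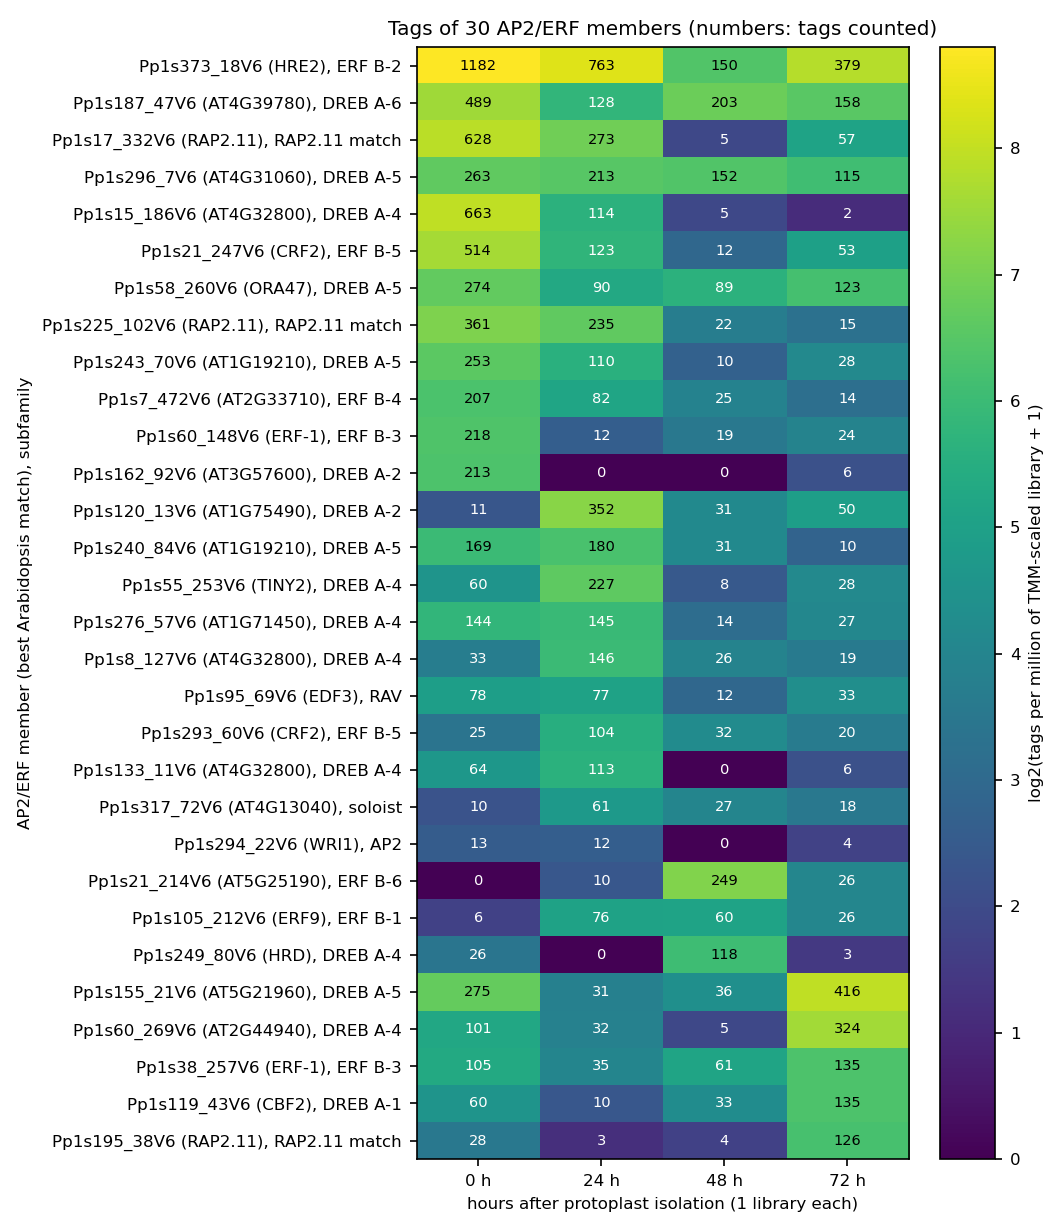
Tags of the 30 members named by the rule (rows, with best Arabidopsis match and subfamily) in the 4 libraries (columns), ordered by highest library; colour is log2 of scaled tags per 1000000 plus 1 and the printed numbers are the tags counted. The upper rows are highest at 0 h, such as Pp1s373_18V6 with 1182 tags, and the lowest rows at 72 h, such as Pp1s155_21V6 with 416 tags.

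ERF B-1 unites repressors such as ERF9 and ERF4 with the regeneration factors ESR1 and DRNL and the organ founder PUCHI of Arabidopsis. None of its 15 members reached 100 tags in any library, so none could be called. The ERF9 match Pp1s105_212V6 had 6, 76, 60 and 26 tags at 0, 24, 48 and 72 h. It was lowest at 0 h, with a ratio of 14.4-fold (6.32 to 40.5) in the first step that met every other condition of a call. The DRNL match Pp1s19_272V6 had 97, 28, 10 and 50 tags, highest at 0 h. The ESR1 match Pp1s204_42V6 had 23, 0, 36 and 25 tags and Pp1s340_16V6 had 2, 27, 2 and 0, so the 24 h library was the lowest for the former and the highest for the latter.

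The RAV factors, the soloist and the AP2 type had few tags. The EDF3 match Pp1s95_69V6, whose Arabidopsis counterpart is induced by ethylene, had 78, 77, 12 and 33 tags at 0, 24, 48 and 72 h, lowest at 48 h. The TEM1 match Pp1s135_69V6, the only member with an annotated B3 domain, had 6 tags at 24 h and 0 elsewhere. The soloist match Pp1s317_72V6 had 10, 61, 27 and 18 tags, highest at 24 h. Among the AP2 type, the WRI1 match Pp1s294_22V6, whose Arabidopsis counterpart drives fatty acid synthesis, had 13, 12, 0 and 4 tags. The ANT match Pp1s17_137V6 had 2 tags at 72 h and 0 in the other libraries, which is no more than the smallest count the tables hold.

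Genes of ethylene synthesis, reception and signalling, numbered 19 by Arabidopsis match. None of the 16 tested was called in the first 24 h, where 2.43% of all genes tested were called higher and 4.88% lower. Between 24 and 48 h 2 of 16 fell (12.5%, beside 6.83% of all genes) and 0 rose (7.48%). Between 48 and 72 h 1 of 12 rose (8.33%, beside 7.65%) and 2 fell (16.7%, beside 7.06%). From 0 to 72 h 4 of 17 fell (23.5%, beside 7.93%) and 0 rose (6.08%). Only genes with 100 tags could be called, and these were few. They numbered 8, 6, 4 and 8 in these comparisons, and 0%, 33.3%, 50% and 50% of them fell. Over all genes that reached 100 tags, 13.3%, 19.1%, 19.7% and 20.6% fell. The most tagged, the RAN1 match Pp1s184_124V6, which loads ethylene receptors with copper in Arabidopsis, had 1388, 614, 69 and 620 tags. It was lowest at 48 h, 6.84-fold (5.32 to 8.90) below 24 h, and rose 9.5-fold (7.4 to 12.4) by 72 h. The ethylene receptor ETR1 was matched by Pp1s1_338V6, with 257, 121, 258 and 28 tags, and by Pp1s176_126V6, with 112, 350, 81 and 52 tags, so their highest libraries differed. The RTE1 match Pp1s25_296V6, a regulator of ETR1 in Arabidopsis, had 74, 179, 183 and 189 tags and was called in no comparison. Its ratio of 72 h to 0 h, 3.997-fold higher (3.04 to 5.30), lay just under the limit. Besides Pp1s1_338V6, those that fell from 0 to 72 h, not named by the rule, were second matches of RAN1 and RTE1 and an ACS4 match. Pp1s94_96V6 (RAN1) had 324, 74, 2 and 6 tags, Pp1s26_197V6 (RTE1) 137, 74, 79 and 8, and Pp1s376_33V6 (ACS4) 290, 141, 12 and 10.

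Late embryogenesis abundant proteins and dehydrins protect drying cells and are among the genes that DREB factors of flowering plants switch on. Of 38 tested in the first 24 h, 14 rose (36.8%, beside 2.43% of all genes tested) and 1 fell (2.63%, beside 4.88%), with a median log2 change of 1.19 beside -0.08. Between 24 and 48 h 1 of 34 rose (2.94%, beside 7.48%) and 6 fell (17.6%, beside 6.83%), with a median of -0.69 beside -0.30. Between 48 and 72 h 2 of 33 rose (6.06%, beside 7.65%) and 4 fell (12.1%, beside 7.06%), with a median of -0.37 beside 0.01. From 0 to 72 h 9 of 36 rose (25%, beside 6.08%) and 5 fell (13.9%, beside 7.93%), with a median of 0.88 beside -0.34. Only genes with 100 tags could be called. Of those, 53.8% rose in the first 24 h (6.64% over all genes that reached it) and 3.85% fell (13.3%). Between 24 and 48 h 4.17% rose (20.9%) and 25% fell (19.1%). Between 48 and 72 h 10% rose (21.3%) and 20% fell (19.7%). From 0 to 72 h 40.9% rose (15.8%) and 22.7% fell (20.6%). These genes as a set held 6769, 18806, 13580 and 9647 tags at 0, 24, 48 and 72 h. On the TMM scale their sums were 2548, 8051, 7568 and 5683 in order of time. Their highest library was thus that of 24 h by either measure, but on the TMM scale 48 h lay close below it.

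The 7 other factor families had 2 genes called higher (0.778%, beside 2.43% of all genes tested) and 25 lower (9.73%, beside 4.88%) of 257 tested in the first 24 h. Between 24 and 48 h 6 of 219 were called higher (2.74%, beside 7.48%) and 17 lower (7.76%, beside 6.83%). Between 48 and 72 h 19 of 192 were called higher (9.9%, beside 7.65%) and 10 lower (5.21%, beside 7.06%). From 0 to 72 h 8 of 248 were called higher (3.23%, beside 6.08%) and 29 lower (11.7%, beside 7.93%). Whether these shares differ from those of the AP2/ERF members was not tested.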

How the data were processed

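Tags were counted by digital gene expression profiling in 4 libraries, 1 per time point. The authors removed adaptor, low-quality and single-copy tags, mapped the rest to gene sequences with Bowtie (at most 1 mismatch) and dropped tags of several genes. The deposited counts per gene were used as they stand, and a second column, headed TPM, was not used. Members with near-identical copies can lose such dropped tags.

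Genes whose tags in both libraries compared summed to 10 or more entered the exact test of edgeR 4.0.16 (R 4.3.3), with TMM scaling over the 4 libraries (factors 1.18, 1.33, 0.914 and 0.694), a dispersion of 1e-09 standing for 0, a prior count of 0.5 and Benjamini-Hochberg adjustment over all genes tested. Calls needed p and adjusted p of at most 0.01, a 4-fold ratio and 100 tags in the higher library. The test compares libraries, not conditions, so no p-value is given. Ratios carry exact conditional 95% intervals, and a ratio against 0 is a bound from 3 tags. That bound takes no account of the single-copy tags removed, so a fold given as at least some value can be overstated. Subfamilies follow the best Arabidopsis locus. In simulated libraries with counting error alone, 200, 195, 196 and 196 of 200 genes changed 8-fold were called for 24 h against 0 h, 48 h against 24 h, 72 h against 48 h and 72 h against 0 h, with 0 wrong calls. The changed genes were drawn from those expected at 100 or more tags, and all others were left unchanged. The recovery therefore does not cover members with fewer tags or changes nearer the 4-fold limit. Spread between cultures was not simulated, so the wrong calls counted do not cover calls that such spread could make.

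The members and lists were chosen with earlier results of these data known. Named were members called in any consecutive step, the 8 with the most scaled tags, the top member of each subfamily, and up to 4 ethylene genes. Other members named were chosen after their values were seen. Alternatives were total tags, DESeq2 1.42.0 size factors, other minima, a dispersion of 0.16, a 2-fold limit and a prior count of 2. TMM of the 2 libraries compared and the omission of the 8 genes above 1% of a library were added after the data were seen. Tables were made with pandas 2.3.3, numpy 2.4.6 and scipy 1.17.1 under Python 3.11.15, figures with matplotlib 3.10.9.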

Additional observations from a re-analysis of the deposited data

How the results depend on the processing

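With total tags in place of TMM, the median log2 change of all genes shifted by 0.17, -0.54, -0.39 and -0.75 in the comparisons 24 h against 0 h, 48 h against 24 h, 72 h against 48 h and 72 h against 0 h. The members' medians became -0.74, -1.51, -0.44 and -2.01, and 1 member in place of 3 was called higher from 0 to 72 h. With a prior count of 2 the medians were -0.80 for 24 h against 0 h, -0.86 for 48 h against 24 h and -1.13 for 72 h against 0 h, and the last 2 of these lay -0.57 and -0.81 from the median of all genes, where -0.70 and -0.95 had been found. Keeping genes with few tags gave medians of -0.76 for 48 h against 24 h and -1.48 for 72 h against 0 h, and differences from all genes of -0.26 for 48 h against 24 h and -0.21 for 72 h against 48 h (-0.06 before). Without genes above 1% of any library, an alternative chosen after seeing the data, the median of 72 h against 48 h turned from -0.05 to 0.0245. A lower minimum adds calls by its construction. The counts of calls below are of members only, and the shares of all genes at these settings were not counted. At 50 tags, 9 members were called lower at 24 h, 4 higher at 48 h, 8 higher at 72 h against 48 h and 6 higher at 72 h against 0 h. At 20 tags, 8 were higher and 19 lower, 7 and 23, 12 and 5, and 9 and 30 in the 4 comparisons. A 2-fold limit gave 17 lower at 24 h, and 5, 7 and 6 higher in the later comparisons. A dispersion of 0.16 left 1 higher and 2 lower at 24 h, 6 lower at 48 h, and 0 higher and 6 lower from 0 to 72 h. Each of the 8 counts of calls stayed within 1.5 times its value with DESeq2 size factors and with TMM of the 2 libraries compared, the latter also added after seeing the data. Under total tags no called member named by the rule changed sign, while uncalled ratios did in 1 of 30, 2 of 28, 0 of 26 and 1 of 30 cases. No paired analysis was possible because each time point has 1 library. Spread between cultures was not measured, and counts under 3 tags limit what can be seen of 22 members that stayed under 10 tags.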

Other observations

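Of the members, 59 carry the same scaffold number in their identifier as another member, over 23 scaffolds. Members of 1 scaffold could differ in their highest library. On scaffold 276, Pp1s276_57V6 had 144, 145, 14 and 27 tags, Pp1s276_3V6 had 78, 9, 0 and 0 and Pp1s276_50V6 had 19, 5, 18 and 9. On scaffold 60, Pp1s60_148V6 was highest at 0 h with 218 tags and Pp1s60_269V6 at 72 h with 324. These genes were chosen after their values were seen.

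The tables also list 3 genes whose best match is an AP2/ERF factor of Arabidopsis but whose Pfam annotation is empty, so they are no members by the rule. Pp1s1_864V6, matched to AT3G60490, had 852, 187, 8 and 177 tags at 0, 24, 48 and 72 h, and by the same test it fell 18.0-fold (8.93 to 42.2) from 24 to 48 h and rose 23.4-fold (11.6 to 55.0) by 72 h. Pp1s4_360V6, with the same match, had 107, 32, 11 and 22 tags, also lowest at 48 h. Pp1s3_625V6, matched to AT4G31060, had 120, 60, 40 and 149 tags and was called in no comparison.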
